A study of Homo sapiens with 40 samples.

Results

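Mock-treated MDA-MB-231 cells collected at 24 h were set against mock-treated cells collected at 12 h, to describe what 12 more hours of culture changed without drug. The arrays were chosen by their labels (control, lot I, 24 h or 12 h), which gave 8 of the 40 arrays of the series, 4 at each time. MDA-MB-231 is an established human triple-negative breast cancer line, so every array comes from 1 line, and the labels call the 4 replicates of a condition independent. The cells were subconfluent when treated, grew in medium with fetal bovine serum and received only the solvent of the drugs. At 24 h they had spent 12 h longer in the solvent, on the dish and in the medium, and these cannot be told apart. Lot I also held cells given 30 µM zoledronate, a bisphosphonate that blocks farnesyl diphosphate synthase, and cells given 2 µM fluvastatin, a statin, which blocks the mevalonate pathway, each at 24 h and 12 h in 4 arrays. Lot II held mock-treated cells at 48 h and 24 h beside zoledronate-treated ones. What a lot stands for is not given in the sources used here.

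Cells adjust cholesterol and fatty acid synthesis through the SREBP transcription factors, which stay in the endoplasmic reticulum while membrane sterol is plentiful and move to the nucleus to switch on enzymes of the mevalonate pathway when it is scarce. NRF2 is a transcription factor that is degraded through KEAP1 in unstressed cells and otherwise drives enzymes of glutathione and thioredoxin metabolism. TGF-beta signals through SMAD proteins and raises matrix genes in many cells, while collagen IV is the main collagen of basement membranes.

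Values were log2 signals, so that a difference of 1 is a doubling, and all differences below are 24 h minus 12 h on the log2 scale unless another comparison is named. The 8 arrays had medians between 6.95 and 7.01 over 18417 named genes, and each correlated with the mean of the rest of its group at r between 0.9936 and 0.9965. Replicate 1 of both times lay apart from the other 6 arrays on the first principal component (−22.5 at 24 h and −16.6 at 12 h), and replicate 4 of both times on the second (19.8 at 24 h and 15.6 at 12 h). Of the markers of the line, the mesenchymal gene VIM lay between 12.15 and 12.33 and the receptor kinase gene AXL between 11.08 and 11.63. The estrogen receptor gene ESR1 (4.45 to 5.28) and the progesterone receptor gene PGR (4.21 to 4.84), which this line is known to lack, were dim. Some other listed markers went the other way. The line marker CDH2 averaged 5.61 at 24 h and 5.45 at 12 h. Of the luminal markers, KRT19 averaged 9.41 at 24 h and 9.18 at 12 h, XBP1 9.16 and 9.29, and FOXA1 7.26 and 7.05. None of the 15 luminal, 12 blood cell or 14 fibroblast and endothelial markers measured passed the threshold in either direction. With the replicate number as a block (below) 0.0977% of all genes passed, so this does not show that the markers stayed the same.

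The change over the 12 h was small: the median gene differed by 0.01, the SD of the differences over all genes was 0.13, and 8 genes were at least 1.5-fold higher and 21 at least 1.5-fold lower at 24 h. In the fit of 1 mean per group over the 24 arrays of lot I (limma, two-sided, Benjamini-Hochberg over 18417 genes), 0 genes passed an adjusted p of 0.05, and 767 genes (4.16%) had an unadjusted p under 0.05. Across the times, arrays sharing replicate number 1 or 4 deviated together (r of 0.48 and 0.47 after each group's mean was subtracted). Numbers 2 and 3 did so more weakly (0.22 and 0.12), and 24 h replicate 3 matched 12 h replicate 2 better (0.24). The replicate number was also used as a block. With that block 18 genes passed (0.0977% of those tested), 9 higher and 9 lower (0.0489% in each direction), and each of the 18 went the same way in 4 of 4 pairs. The groups of 6 of the 18 did not overlap (2.22% of all genes), and 2 of the 18 differed by 1.5-fold or more. The 18 were selected on this same contrast, so these counts describe them and lend their calls no support. In what follows, "rose" and "fell" are used only of these 18 genes, and none of them passed without the block. Centring each array on its median kept 15 of the 18 and gave 6 higher and 13 lower. The calls of IDI1, SCD and GPRC5B were lost. With the 8 mock-treated arrays fitted alone 0 genes passed with or without the block, and with the block in lot I, leaving out replicate number 1, 2, 3 or 4 gave 3, 0, 0 and 8 genes. Of those 8, 4 were among the 18 (HMGCS1, LPIN1, MYO10 and PMEPA1).

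**Figure D1:**
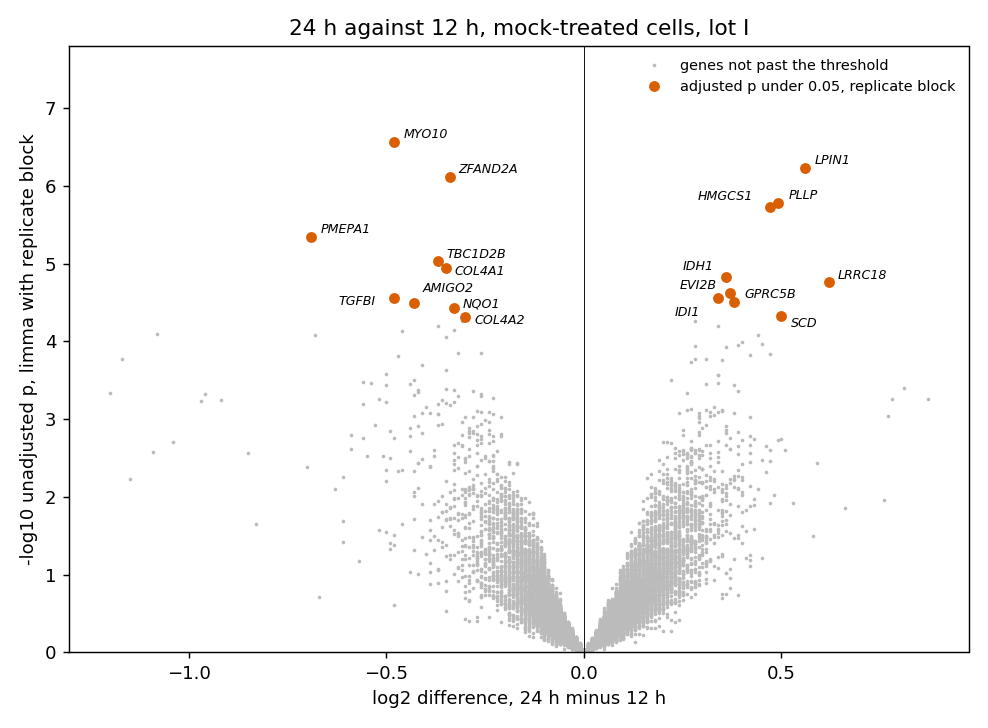
Each point is a gene, with the log2 difference of 24 h minus 12 h on the x axis and −log10 of the unadjusted limma p with the replicate block on the y axis. The 18 genes with an adjusted p under 0.05 are named; 9 lie on each side, and the lower ones with the smallest p are MYO10 and ZFAND2A.

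Genes of cholesterol synthesis and of lipid synthesis leaned higher at 24 h. Of 20 listed enzymes of cholesterol synthesis 16 were measured, and their median difference was 0.27, against 0.01 over all genes, with a range of 0.00 to 0.47. HMGCS1 and IDI1 rose and 0 members fell (0.0489% of all genes rose), and 12 of the 16 had an unadjusted p under 0.05 in the higher direction with the block, against 5.06% of all genes. Of 20 listed genes of sterol uptake, sterol sensing and fatty acid synthesis 18 were measured, with a median of 0.19, a range of −0.06 to 0.56 and likewise 12 genes at an unadjusted p under 0.05. LPIN1 and SCD rose in that list. The other listed genes were not analysed here. The counts describe lists chosen with earlier results of these data known.

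The stretches upstream of HMGCS1, MVK and INSIG1 are shown because all 3 genes were higher in every pair and their windows hold the CCAAT box, which nuclear factor NF-Y binds next to SREBP at many sterol genes. The sequences are from RefSeq (GRCh38.p14), read 5′ to 3′ on the gene's strand from 180 to 21 bases before the start, with the letters CCAAT, or ATTGG for a match on the opposite strand, in capitals.
HMGCS1 chr5:43313433-43313592, minus strand: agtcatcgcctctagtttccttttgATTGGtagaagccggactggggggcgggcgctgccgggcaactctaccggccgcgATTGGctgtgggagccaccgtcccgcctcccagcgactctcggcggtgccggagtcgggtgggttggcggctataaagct
MVK chr12:109573614-109573773, plus strand: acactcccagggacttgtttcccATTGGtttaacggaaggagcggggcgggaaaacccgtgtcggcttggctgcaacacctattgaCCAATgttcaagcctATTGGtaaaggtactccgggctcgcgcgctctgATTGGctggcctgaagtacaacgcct
INSIG1 chr7:155297698-155297857, plus strand: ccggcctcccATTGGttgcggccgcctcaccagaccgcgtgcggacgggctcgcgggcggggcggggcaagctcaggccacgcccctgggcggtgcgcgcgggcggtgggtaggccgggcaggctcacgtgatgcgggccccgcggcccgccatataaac
The letters start 155 and 100 bases before the start in HMGCS1, 157, 94, 79 and 46 bases before it in MVK, and 170 bases before it in INSIG1. CCAAT was searched on both strands in windows of 250 bases before to 50 bases after the start, and 11 of 14 cholesterol synthesis genes with a window held it (78.6%). It was in 8 of 17 windows of the sterol uptake and lipid list (47.1%) and in 5166 of 14239 windows of all measured genes (36.3%). A match describes the letters only.

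HMGCS1 is the synthase of an early step of the mevalonate pathway. It read 9.26, 9.89, 10.14 and 9.73 in replicates 1 to 4 at 24 h, against 8.77, 9.48, 9.47 and 9.41 at 12 h. Replicate 1 was the lowest array at both times, so that the groups overlapped, while each 24 h array lay above the 12 h array of its own number. HMGCS1 rose by 0.47 ± 0.22 (SE), with an adjusted p of 0.00695 with the block and 1 without it. SEs here and below are from the fit without the block, and with the block the SE of HMGCS1 was 0.07. Without replicate 1 at 12 h the difference of HMGCS1 was 0.30 with no block. IDI1, the isomerase that makes dimethylallyl diphosphate, read 9.34, 9.81, 9.94 and 9.77 at 24 h, against 9.0, 9.60, 9.45 and 9.47 at 12 h. Replicate 1 was again lowest at both times, and IDI1 rose by 0.34 ± 0.17 (adjusted p 0.0392 with the block). Leaving out replicate 1 at 12 h gave 0.21 for IDI1 with no block. With the block, the IDI1 call was lost after median centring and when any replicate number was left out.

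Mevalonate kinase, MVK, read 8.13, 8.09, 8.31 and 8.11 at 24 h, against 7.81, 7.84, 7.93 and 7.93 at 12 h. Its groups did not overlap, as for TM7SF2, the sterol reductase, and these were the 2 non-overlapping members of the 16 (1.28% of all genes lay wholly higher). MVK differed by 0.28 ± 0.08 (adjusted p 0.0655 with the block), just outside the threshold. Enzymes of the later, sterol-specific steps had differences of similar size that did not pass: 0.39 for the methylsterol monooxygenase MSMO1, 0.35 for the last-step reductase DHCR7, 0.31 for the lanosterol demethylase CYP51A1, 0.28 for lanosterol synthase LSS and 0.25 for squalene epoxidase SQLE. Leaving out 1 array gave 0.21 to 0.56 for MSMO1. FDPS, the enzyme that zoledronate blocks, differed by 0.14 ± 0.10, and the isomerase EBP by 0.00 ± 0.17. Both lay in the lower part of the range of the 16.

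Among genes that sense sterol or use SREBP to make fatty acids, LPIN1 had the largest difference. LPIN1, a phosphatidate phosphatase on the way to triglyceride, read 9.42, 9.47, 9.59 and 9.86 at 24 h, against 8.99, 8.78, 8.87 and 9.45 at 12 h. Replicate 4 was the highest array at both times, and its 12 h array was the one that overlapped the 24 h group. LPIN1 rose by 0.56 ± 0.19 (adjusted p 0.00467 with the block). The desaturase SCD, which makes monounsaturated fatty acids, read 10.35, 10.52, 10.70 and 10.94 at 24 h, against 9.87, 10.15, 9.89 and 10.62 at 12 h. Replicate 4 was again highest at both times, and SCD rose by 0.50 ± 0.19 (adjusted p 0.0498 with the block). That call was lost after median centring and when any replicate number was left out.

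INSIG1, which holds SREBP in the endoplasmic reticulum and is itself an SREBP target, read 8.76, 9.27, 9.48 and 9.48 at 24 h, against 8.24, 8.97, 8.80 and 9.18 at 12 h. Each array at 24 h was above its partner, the groups overlapped, and the difference of 0.45 ± 0.20 had an adjusted p of 0.0655 with the block. It ran from 0.26 without replicate 1 of 12 h to 0.61 without replicate 1 of 24 h, with no block. SREBF1, which encodes SREBP1, read 8.12, 8.11, 8.21 and 8.35 at 24 h, against 7.81, 7.78, 7.67 and 8.15 at 12 h. Only the 12 h array of replicate 4 reached into the 24 h range, and the difference of 0.34 ± 0.11 had an adjusted p of 0.0535. SREBF2, which encodes SREBP2, differed by 0.27 ± 0.21, was higher in 3 of 4 pairs and ran from 0.13 to 0.47 when 1 array was left out. The sterol carrier STARD4 differed by 0.42, the acetyl-CoA synthetase ACSS2 by 0.32 and fatty acid synthase, FASN, by 0.21, none past the threshold.

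**Figure D2:**
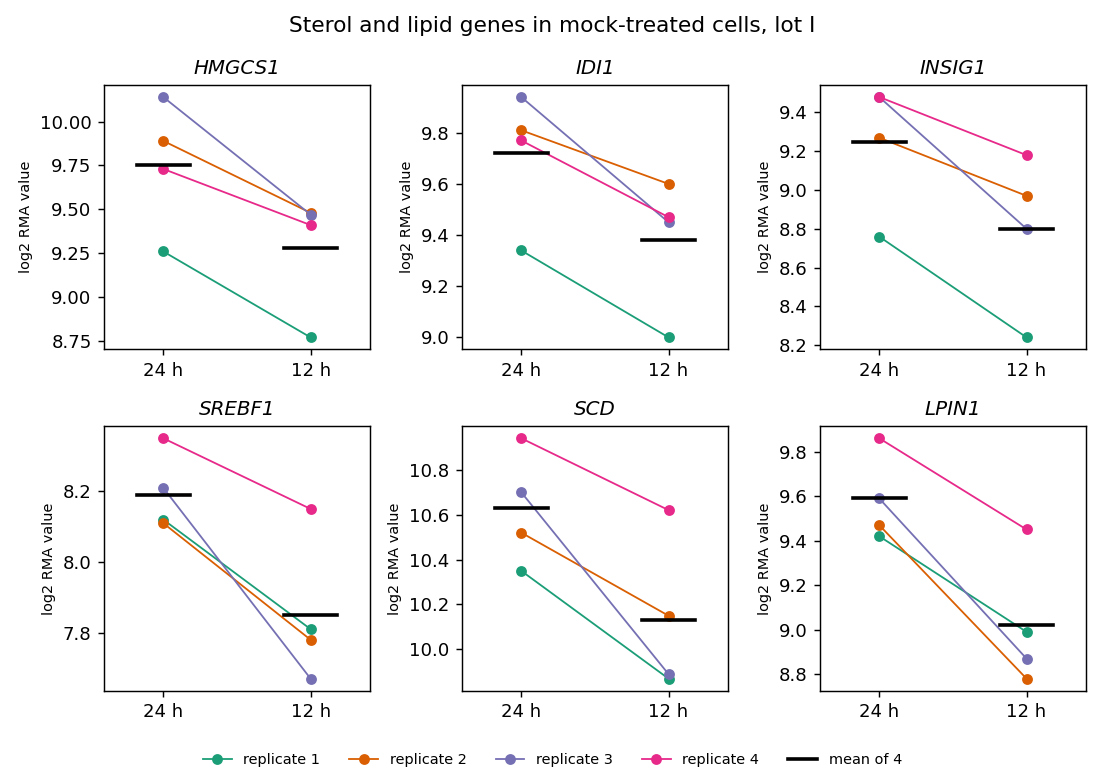
The y axes give log2 RMA values of 6 sterol and lipid genes in single arrays at 24 h (left) and 12 h (right); lines join arrays of the same replicate number and black bars are means of 4. Every line in the HMGCS1, IDI1, INSIG1, SREBF1, SCD and LPIN1 panels is higher at its 24 h end, and the replicate numbers of HMGCS1, IDI1 and INSIG1 spread wider than the difference between the times.

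Some NRF2 targets leaned the other way. Of 24 listed genes of the oxidative stress response 22 were measured, with a median of −0.04, 14 negative and 8 positive differences. By array the list's median deviation was −0.03, −0.05, 0.02 and −0.10 at 24 h, against 0.08, 0.02, 0.09 and 0.00 at 12 h, lower at 24 h in each pair. NQO1 was the 1 member that fell (0.0489% of all genes fell), 0 rose, and 7 of the 22 had an unadjusted p under 0.05 in the lower direction with the block, against 4.04% of all genes. In 3 of the 22 every 24 h array lay below every 12 h array, against 0.934% of all genes. NQO1, a quinone reductase, read 10.87, 10.51, 10.70 and 10.58 at 24 h, against 11.14, 10.78, 11.01 and 11.05 at 12 h. The groups overlapped at replicate 1 of 24 h and replicate 2 of 12 h, but each pair was lower at 24 h. NQO1 fell by 0.33 (−0.33 ± 0.12, adjusted p 0.0424 with the block).

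GCLM, the modifier subunit of the rate-limiting enzyme of glutathione synthesis, read 8.04, 8.19, 8.20 and 8.05 at 24 h, against 8.67, 8.67, 8.60 and 8.36 at 12 h. Thioredoxin reductase TXNRD1 read 11.08, 11.02, 11.06 and 10.94 at 24 h, against 11.37, 11.25, 11.56 and 11.25 at 12 h. Both genes were lower in every 24 h array than in any 12 h array. Their differences, −0.46 ± 0.11 for GCLM and −0.33 ± 0.09 for TXNRD1, each had an adjusted p of 0.0561 with the block, just above the threshold. The heme oxygenase HMOX1 differed by −0.35, the cystine transporter SLC7A11 by −0.32, the sulfiredoxin SRXN1 by −0.22 and malic enzyme ME1 by −0.16, none past the threshold. The aldo-keto reductases AKR1C1, AKR1B10 and AKR1C3, also NRF2 targets in human cells, had differences of 0.25, 0.23 and 0.21 with adjusted p from 0.727 to 0.852 with the block. Leaving out 1 array gave 0.12 to 0.50 for AKR1C1, 0.00 to 0.40 for AKR1B10 and 0.11 to 0.31 for AKR1C3.

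The windows of TXNRD1 and GCLM are shown because both genes were lower in all pairs and hold the core of the antioxidant response element, TGACNNNGC, to which NRF2 binds with small MAF proteins; the core, or GCNNNGTCA for the opposite strand, is in capitals.
TXNRD1 chr12:104215599-104215758, plus strand: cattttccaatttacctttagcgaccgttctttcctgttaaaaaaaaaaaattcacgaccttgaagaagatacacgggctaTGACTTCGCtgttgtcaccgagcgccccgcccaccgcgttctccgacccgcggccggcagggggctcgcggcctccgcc
GCLM chr1:93909451-93909610, minus strand: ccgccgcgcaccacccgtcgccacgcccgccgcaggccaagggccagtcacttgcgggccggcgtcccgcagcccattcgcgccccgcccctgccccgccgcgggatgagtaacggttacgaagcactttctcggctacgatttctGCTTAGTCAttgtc
The core starts 99 bases before the start in TXNRD1 and 34 bases before it in GCLM (RefSeq, GRCh38.p14, both strands searched). It was in 5 of 17 windows of the oxidative stress list (29.4%) and in 2079 of 14239 windows of all measured genes (14.6%). It was in 1 of 14 cholesterol synthesis windows (7.14%), and CCAAT was in 10 of 17 oxidative stress windows (58.8%).

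Matrix genes and genes of the TGF-beta pathway held 3 of the 9 genes that fell. All 28 listed were measured, with a median of −0.02 and differences from −0.97 to 0.17. By array the list's median deviation was −0.05, −0.05, −0.15 and 0.05 at 24 h, against 0.02, 0.06, −0.04 and 0.06 at 12 h, lower at 24 h in each pair. COL4A1, COL4A2 and TGFBI fell (0.0489% of all genes fell) and 0 members rose. With the block 7 members had an unadjusted p under 0.05 in the lower direction (4.04% of all genes) and 1 in the higher (5.06% of all genes). COL4A1, the first chain of collagen IV, read 7.38, 7.33, 7.37 and 7.46 at 24 h, against 7.79, 7.68, 7.71 and 7.76 at 12 h. The groups were wholly apart and narrow, and COL4A1 fell by 0.35 (−0.35 ± 0.08, adjusted p 0.0259 with the block). COL4A2, whose gene lies head to head with COL4A1, read 8.09, 8.05, 8.02 and 8.20 at 24 h, against 8.52, 8.40, 8.20 and 8.44 at 12 h. The groups met at 8.20, and COL4A2 fell by 0.30 (−0.30 ± 0.08, adjusted p 0.0498 with the block).

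TGFBI, a secreted matrix protein named for its induction by TGF-beta, read 8.17, 7.62, 7.68 and 7.52 at 24 h, against 8.58, 8.36, 8.07 and 7.92 at 12 h. Replicate 1 was the highest array at both times and each pair was lower at 24 h, for a difference of −0.48 ± 0.19 (adjusted p 0.0392 with the block). PMEPA1, a TGF-beta target that dampens SMAD signalling and stood outside the list, read 7.24, 6.76, 7.02 and 6.92 at 24 h, against 7.88, 7.73, 7.78 and 7.29 at 12 h. Its groups did not overlap, and PMEPA1 fell by 0.69 (−0.69 ± 0.16, adjusted p 0.0139 with the block), the largest of the 9 falls. THBS1, which encodes thrombospondin 1, an activator of latent TGF-beta, read 10.84, 10.73, 10.22 and 10.45 at 24 h, against 11.62, 11.77, 11.64 and 11.08 at 12 h. The groups did not overlap but varied within themselves, and the difference of −0.97 ± 0.25 had an adjusted p of 0.138 with the block. The SMAD co-repressor SKIL differed by −0.38 with groups apart, fibronectin FN1 by −0.24, the ligand TGFB1 by −0.14 and the transmembrane collagen COL13A1 by 0.17, none past the threshold.

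**Figure D3:**
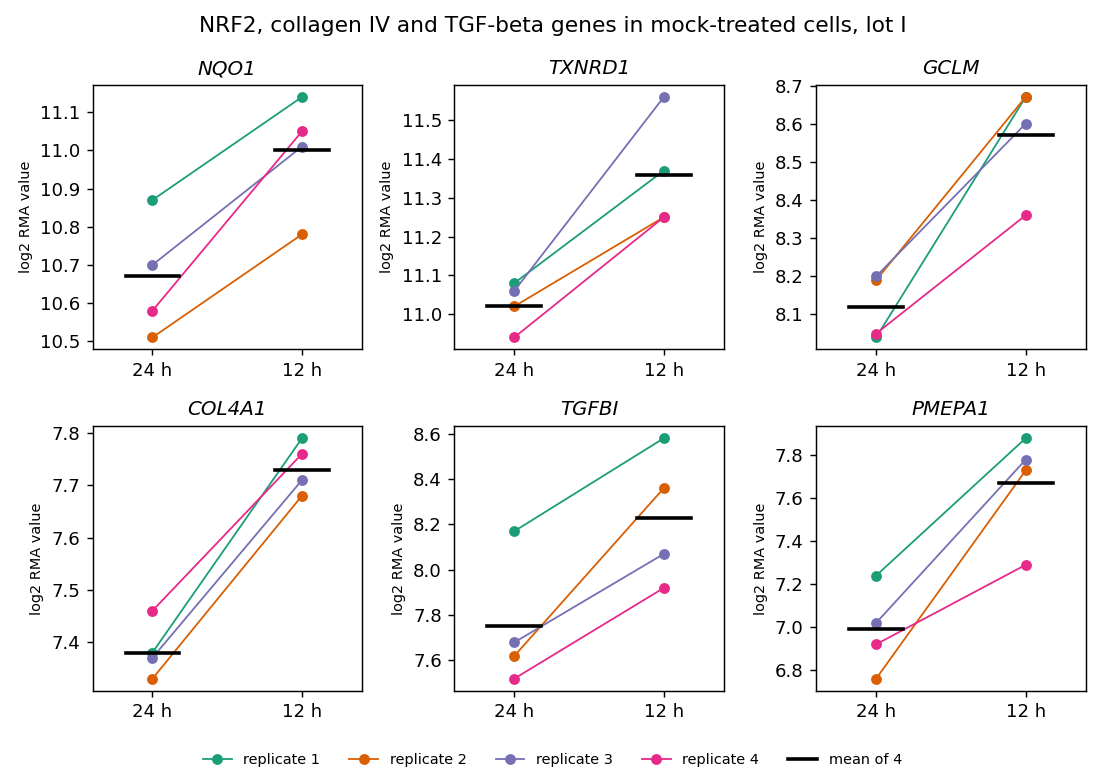
The y axes give log2 RMA values of 6 genes in single arrays at 24 h (left) and 12 h (right); lines join arrays of the same replicate number and black bars are means of 4. Every line in the NQO1, TXNRD1, GCLM, COL4A1, TGFBI and PMEPA1 panels is lower at its 24 h end, and the 4 arrays of each time stay apart for TXNRD1, GCLM, COL4A1 and PMEPA1.

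The other 9 genes that passed belonged to none of those groups. MYO10, an unconventional myosin of filopodia, read 9.80, 9.57, 9.46 and 9.82 at 24 h, against 10.21, 10.13, 10.03 and 10.19 at 12 h. All 24 h arrays lay below all 12 h arrays, and MYO10 fell by 0.48 (−0.48 ± 0.11, adjusted p 0.00467 with the block and 0.531 without). ZFAND2A, a zinc finger gene induced by arsenite and heat, read 7.88, 7.86, 8.06 and 7.83 at 24 h, against 8.20, 8.27, 8.37 and 8.14 at 12 h. It too was apart in all arrays and fell by 0.34 (−0.34 ± 0.08, adjusted p 0.00467). The Rab GTPase activator TBC1D2B fell by 0.37 with groups apart, at 7.46 ± 0.05 at 24 h and 7.83 ± 0.12 at 12 h (SD, n = 4 each). The adhesion protein gene AMIGO2 fell by 0.43, at 9.57 ± 0.20 at 24 h and 10.00 ± 0.30 at 12 h, with overlapping groups. Their adjusted p with the block were 0.0247 for TBC1D2B and 0.0392 for AMIGO2.

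Among the rises outside the sterol lists, IDH1, the cytosolic isocitrate dehydrogenase that makes NADPH and is a known SREBP target, read 9.52, 9.77, 9.90 and 9.78 at 24 h, against 9.16, 9.45, 9.53 and 9.38 at 12 h. The single overlap was between replicate 1 of 24 h and replicate 3 of 12 h, and IDH1 rose by 0.36 ± 0.10 (adjusted p 0.0307 with the block). PLLP, which encodes the membrane protein plasmolipin, averaged 8.71 ± 0.29 at 24 h and 8.22 ± 0.25 at 12 h (SD, n = 4 each), and rose by 0.49 (limma adjusted p 0.00695 with the block). GPRC5B, an orphan receptor, averaged 8.16 ± 0.20 at 24 h and 7.79 ± 0.33 at 12 h, and EVI2B, a membrane glycoprotein gene, 9.55 ± 0.51 at 24 h and 9.19 ± 0.47 at 12 h. GPRC5B rose by 0.38 and EVI2B by 0.37, each with an adjusted p of 0.0392 with the block. EVI2B read 8.91, 9.41, 9.85 and 10.05 at 24 h, against 8.62, 9.13, 9.26 and 9.75 at 12 h, a spread between replicate numbers wider than its difference. With no block, leaving out replicate 1 at 12 h, replicate 1 at 24 h or replicate 4 at 24 h gave 0.17, 0.58 and 0.20 for EVI2B, and the first of these gave 0.22 for GPRC5B. LRRC18, a leucine-rich repeat gene, read 5.80, 5.41, 5.75 and 5.47 at 24 h, against 4.97, 4.96, 5.07 and 4.95 at 12 h. Its groups were apart, and it rose by 0.62 ± 0.13 (adjusted p 0.0323 with the block), although these signals were dim.

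Of the 12 genes with the smallest p in each direction without the block, none passed. On the higher side these included MVK and IDH1, but most were dim: ADGB, GRM8, OR2T27, SLC9B1, LCA5L and PCK1 averaged 3.81, 5.27, 4.47, 3.82, 3.75 and 5.25 at 24 h, against 3.36, 4.80, 3.68, 2.96, 3.39 and 4.83 at 12 h. On the lower side they included MYO10, GCLM, PMEPA1, COL4A1, ZFAND2A, TBC1D2B and HMOX1, which the block fit or the lists above also named. The lysosomal transporter SLC46A3 was among them at 6.18 ± 0.15 at 24 h and 6.65 ± 0.17 at 12 h, and CDC42SE1, a gene of a small CDC42-binding protein, at 8.32 ± 0.06 at 24 h and 8.64 ± 0.06 at 12 h (SD, n = 4 each). Both had groups apart, with differences of −0.47 for SLC46A3 and −0.32 for CDC42SE1 and adjusted p of 0.0755 and 0.0738 with the block. The genes just outside the threshold with the block were the keratin KRT7 (−0.31, adjusted p 0.0504), GSE1 (0.28, 0.0504), the mitochondrial chaperonin HSPE1 (−0.37, 0.0535) and SREBF1.

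No member of the cell cycle or ribosome biogenesis lists passed in either direction. The 29 genes of G2 and mitosis had a median of −0.09 with 27 negative, and 4 had an unadjusted p under 0.05 in the lower direction with the block (13.8%, against 4.04% of all genes). Cyclin A2, CCNA2, averaged 9.94 ± 0.06 at 24 h and 10.11 ± 0.09 at 12 h (SD, n = 4 each) with groups apart (0.934% of all genes lay wholly lower). The proliferation marker MKI67 differed by −0.21 and the kinase PLK1 by −0.20. The 29 genes of G1 and S phase had a median of 0.00. Cyclin D1, CCND1, differed by −0.03 ± 0.08, MYC by 0.00 ± 0.11 and the CDK inhibitor CDKN1A by −0.10 ± 0.14. The 30 ribosome biogenesis genes had a median of −0.07 with 27 negative differences. Small shifts of this kind stood beside a median of 0.01 over all genes, of which 9928 were positive.

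Genes that respond to cell density and shape did not pass either. The 25 YAP and TAZ targets had a median of −0.03, with CCN1 at −0.24 ± 0.29, CCN2 at −0.15 ± 0.21 and the Wnt inhibitor DKK1 at −0.15 ± 0.26. The 21 genes of SRF and actin had a median of −0.06, and 7 had an unadjusted p under 0.05 in the lower direction with the block (33.3%, against 4.04% of all genes), among them tropomyosin TPM1 at −0.42 and caldesmon CALD1 at −0.31, while smooth muscle actin ACTA2 was at 0.17. The 19 protease and plasminogen genes had a median of −0.04 with 6 positive, in a range of −0.35 to 0.35. The 21 adhesion genes had a median of 0.03 with 12 positive, in a range of −0.42 to 0.36. At an unadjusted limma p under 0.05 with the block, 2 protease genes were higher and 3 lower, and 3 adhesion genes higher and 3 lower. In these mixed lists, the urokinase gene PLAU, its receptor PLAUR, integrin beta 3 (ITGB3) and the hyaluronan receptor CD44 differed by −0.35, −0.26, −0.42 and −0.26. The groups of PLAU, ITGB3 and CD44 did not overlap (2.22% of all genes), and the smallest adjusted p of the 4 with the block was 0.0738 for CD44.

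The times lie 12 h apart in a daily cycle, and the 19 measured clock genes had a median of 0.01 with 0 past the threshold. BMAL1, which encodes an activator of the clock, read 6.38, 6.62, 6.50 and 6.54 at 24 h, against 6.85, 6.89, 6.67 and 6.82 at 12 h. DBP, a clock output gene, read 7.52, 7.57, 7.68 and 7.71 at 24 h, against 7.47, 7.18, 7.40 and 7.40 at 12 h. Both were apart in all arrays, as were 2.22% of all genes. BMAL1 was lower by −0.30 ± 0.10 and DBP higher by 0.26 ± 0.10, with adjusted p of 0.244 and 0.408 with the block. The repressors PER1, PER2, PER3 and NR1D1 differed by 0.12, −0.12, 0.18 and −0.06. HLF differed by 0.23 and BHLHE40 by −0.06, and no difference among these passed.

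Interferon-stimulated genes leaned higher, with a median of 0.13 over the 31 of 37 measured and 24 positive differences. With the block, 10 had an unadjusted limma p under 0.05 in the higher direction (32.3%, against 5.06% of all genes) and 0 passed the threshold. Without the block 0 of the 31 had such a p, against 479 of all 18417 genes. IFIT1, which binds foreign RNA, read 7.61, 9.58, 10.12 and 9.89 at 24 h, against 7.46, 8.71, 8.53 and 9.44 at 12 h. Replicate 1 was far below the others at both times, and the difference of 0.77 ± 0.58 had an adjusted p of 0.155 with the block. It was 0.41 without replicate 1 of 12 h and 1.33 without replicate 1 of 24 h. The RNA sensor RIGI differed by 0.34, OASL by 0.51 and MX2 by 0.26. The 31 ATF4 and amino acid genes had a median of −0.03, with the paired transporter subunits SLC7A5 and SLC3A2 at −0.41 and −0.27, mitochondrial PCK2 at −0.23, DDIT3 at −0.07 and ASNS at −0.10. SLC3A2 and PCK2 had groups apart (2.22% of all genes), and no gene of the list passed. The immediate early genes FOS, EGR1 and NR4A2 differed by −0.43, −0.38 and 0.42, and KLF2, RHOB, VIM, NDRG1 and TXNIP by 0.07, 0.07, −0.05, 0.02 and −0.18.

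**Figure D4:**
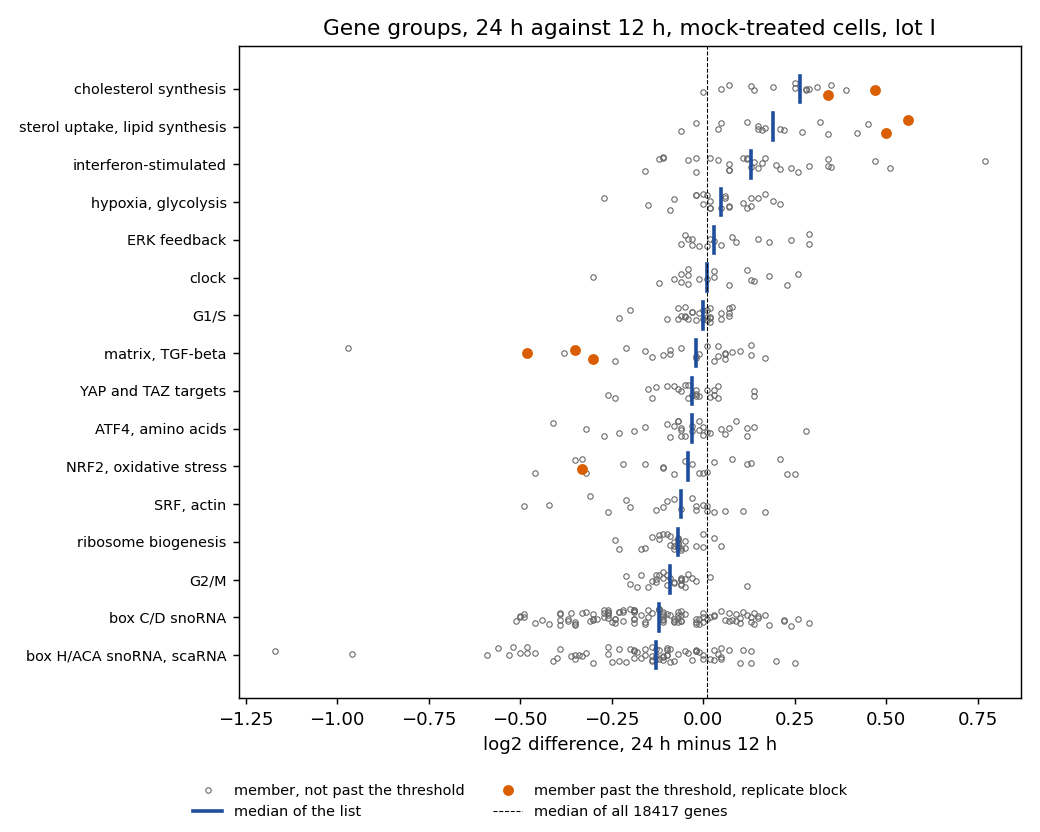
Each row is a gene list and each point a member, with the log2 difference of 24 h minus 12 h on the x axis; filled orange points passed the threshold with the replicate block, blue bars are list medians and the dashed line is the median of all 18417 genes (0.01). The medians of cholesterol synthesis (0.27) and sterol uptake and lipid synthesis (0.19) lie farthest to the right, those of box C/D (−0.12) and box H/ACA (−0.13) small RNAs farthest to the left.

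Short noncoding RNAs made up 10 of the 21 genes at least 1.5-fold lower at 24 h and 0 of the 8 at least 1.5-fold higher, and none of them passed the threshold. Their share among all genes was not counted, so these counts cannot be read as an excess. Their values also varied more: the SEs of RNU5E-1, RNU4-2 and RNU5D-1 were 0.39, 0.39 and 0.43, against a median SE of 0.11. RNU5E-1, a U5 spliceosomal RNA, read 7.46, 8.02, 8.49 and 7.93 at 24 h, against 9.69, 9.52, 9.57 and 7.93 at 12 h. SCARNA5, a Cajal body RNA, read 6.76, 6.79, 6.85 and 6.64 at 24 h, against 8.24, 8.45, 8.18 and 6.82 at 12 h. In both, replicates 1 to 3 of 12 h were high and replicate 4 of 12 h read like the 24 h arrays. The differences were −1.20 ± 0.39 for RNU5E-1 and −1.17 ± 0.31 for SCARNA5, with adjusted p of 0.13 and 0.0768 with the block. With the block and replicate number 4 left out they were −1.60 (limma adjusted p 0.0165) for RNU5E-1 and −1.49 (0.000202) for SCARNA5. Leaving out number 1, 2 or 3 instead gave adjusted p of 0.283, 0.69 and 0.374 for RNU5E-1. For SCARNA5 it gave 0.26, 0.626 and 0.339. With the dimmest genes left out (12278 kept) and all 4 numbers, SCARNA5 passed (adjusted p 0.0323) and RNU5E-1 did not (0.0648). U4 and U5 RNAs RNU4-2 and RNU5D-1 differed by −1.15 and −1.09 and the H/ACA RNA SNORA23 by −0.96.

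Small nucleolar RNAs guide chemical changes of ribosomal RNA. The 115 box C/D genes had a median of −0.12 with 86 negative, and 20 had an unadjusted p under 0.05 in the lower direction with the block (17.4%, against 4.04% of all genes). The 77 box H/ACA and Cajal body genes had a median of −0.13 with 61 negative and 22 at that p (28.6%). No member of either list passed the threshold. Many of these RNAs lie in introns of host genes, and the unspliced host RNA and the small RNA cannot be told apart by a probe.

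The probe set named MIR21 is shown with its mature product because it had one of the largest differences; the seed, bases 2 to 8, is in capitals (RefSeq, GRCh38.p14).
hsa-miR-21-5p chr17:59841273-59841294, plus strand: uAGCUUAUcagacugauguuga
MIR21 read 6.53, 7.11, 6.92 and 6.44 at 24 h, against 7.83, 7.57, 8.82 and 7.12 at 12 h. Every pair was lower at 24 h and the groups were apart, by a narrow margin because of the 12 h array of replicate 4. The difference was −1.08 ± 0.32 (adjusted p 0.0561 with the block), and the array cannot tell the 22-base mature form from its longer precursors.

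The same 12 h interval was measured in other arrays of lot I under each drug, and these arms share no array with the mock-treated cells. The labels pair treated and control arrays within a time, however, so anything the paired arrays of a time shared is common to the arms. Like signs across the arms are therefore not independent findings. In zoledronate-treated cells 0 genes passed without the block (limma, with 861, or 4.68%, at an unadjusted p under 0.05) and 66 with it (0.358%). In fluvastatin-treated cells 68 genes passed without the block (0.369%) and 1067 with it (5.79%). Leaving out replicate number 1, 2, 3 or 4 left 50, 2, 3 and 19 genes with the block under zoledronate, and 444, 617, 153 and 450 under fluvastatin. The sterol genes leaned higher in every arm. The median of the 16 cholesterol synthesis genes was 0.32 under zoledronate, 0.41 under fluvastatin and 0.27 in mock-treated cells, with 7, 12 and 2 genes higher past the threshold with the block. Over all genes 0.261% were higher under zoledronate by that rule, 4.43% under fluvastatin and 0.0489% in mock-treated cells. For the 18 sterol uptake and lipid genes the medians were 0.25, 0.36 and 0.19, with 6, 11 and 2 genes past it. HMGCS1 differed by 0.69 under zoledronate and 0.72 under fluvastatin against 0.47 in mock-treated cells, LPIN1 by 0.62 and 0.62 against 0.56, and SCD by 0.47 and 0.65 against 0.50.

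The genes that fell were likewise negative in all 3 arms. PMEPA1 differed by −0.79 under zoledronate and −0.68 under fluvastatin against −0.69 in mock-treated cells, TGFBI by −0.53 and −0.52 against −0.48, and MYO10 by −0.43 and −0.49 against −0.48. COL4A1 differed by −0.35 and −0.15 against −0.35, and NQO1 by −0.26 and −0.06 against −0.33. PMEPA1, TGFBI and MYO10 passed with the block in both drug arms, COL4A1 under zoledronate (adjusted p 0.0167), and NQO1 in neither (0.0715 under zoledronate and 0.601 under fluvastatin). LRRC18 was the exception among the 18, at −0.19 under zoledronate and −0.07 under fluvastatin against 0.62 in mock-treated cells.

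Whether the interval acted differently with a drug was tested on the difference of the differences. For zoledronate minus mock-treated cells, 0 genes passed with or without the block (limma), and 394 (2.14%) had an unadjusted p under 0.05 without it. For fluvastatin minus mock-treated cells, 0 genes passed without the block, with 1076 (5.84%) at an unadjusted p under 0.05, and 1 with it (0.00543%). That gene was GBP2, an interferon-induced GTPase, with 1.29 under fluvastatin and 0.21 in mock-treated cells. In mock-treated cells GBP2 read 5.26, 5.66, 6.0 and 6.01 at 24 h, against 5.26, 5.63, 5.54 and 5.69 at 12 h. Its difference between the arms was 1.09 (95% interval 0.50 to 1.67, adjusted p 0.63 without the block and 0.0218 with it). Leaving out any replicate number ended that call.

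For the sterol genes the intervals of these differences, from the fit without the block, were wide for some and narrower for others. MVK differed between the arms by 0.04 (95% interval −0.18 to 0.27) for zoledronate minus mock-treated. For fluvastatin minus mock-treated MVK differed by 0.07 (−0.16 to 0.29). HMGCS1 differed between the arms by 0.21 (95% interval −0.43 to 0.86) for zoledronate minus mock-treated and by 0.24 (−0.40 to 0.89) for fluvastatin minus mock-treated. ACSS2 had the interval farthest from 0 among them, with 0.94 under fluvastatin and 0.32 in mock-treated cells, a difference of 0.62 (0.27 to 0.97, adjusted p 0.729 without the block and 0.151 with it). PMEPA1 differed by −0.10 (−0.56 to 0.36) for zoledronate and 0.00 (−0.46 to 0.47) for fluvastatin. LRRC18 differed by −0.81 (−1.18 to −0.45) for zoledronate and −0.69 (−1.05 to −0.32) for fluvastatin, with adjusted p of 0.749 and 0.173 with the block. ME1, at 0.28 under fluvastatin and −0.16 in mock-treated cells, differed by 0.44 (0.22 to 0.65, adjusted p 0.151 with the block), and GNG4, a G protein subunit gene, at −0.34 and 0.35, by −0.69 with the same adjusted p. Effects of the drugs at the earlier time are part of these arms, so equal differences do not mean equal levels.

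**Figure D5:**
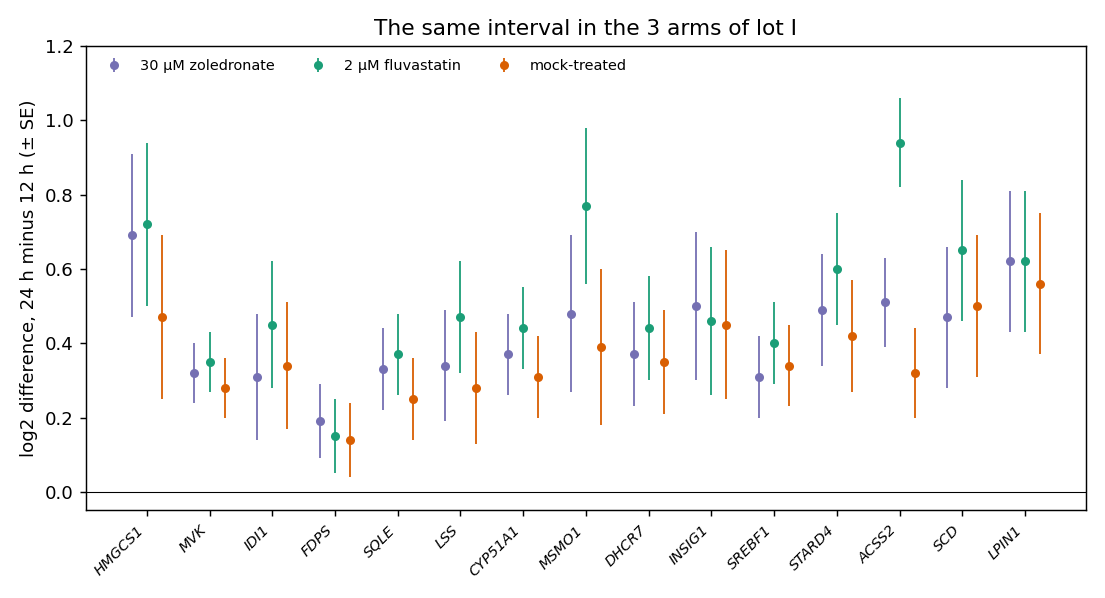
The y axis gives the log2 difference of 24 h minus 12 h (± SE) of 15 sterol and lipid genes in zoledronate-treated, fluvastatin-treated and mock-treated cells of lot I, from left to right for each gene. The mock-treated values lie between 0.14 for FDPS and 0.56 for LPIN1, and the error bars of the 3 arms overlap except for ACSS2 under fluvastatin.

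Mock-treated cells of lot II were sampled at 48 h and 24 h and give another interval of culture, longer and later, so the values stand side by side only. In a fit of all 40 arrays 0 genes passed for 24 h minus 12 h in lot I, and 188 for 48 h minus 24 h in lot II (1.02%). The cholesterol synthesis list had medians of 0.27 in lot I and 0.07 in lot II, the sterol uptake and lipid list 0.19 in lot I and 0.09 in lot II, and HMGCS1 differed by 0.47 in lot I and −0.13 in lot II. DDIT3, a transcription factor of the integrated stress response, differed by −0.07 in lot I and 1.49 in lot II, and the 31 ATF4 genes had medians of −0.03 in lot I and 0.76 in lot II. For DDIT3 the difference between the lots of −1.56 had an adjusted p of 0.161, so it did not pass.

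Of the 26 genes whose interval differed between the lots (0.141%), 22 were in the small nucleolar RNA lists. Except for SNORD105, SNORD37, SCARNA4 and SCARNA10, these 22 were negative in both lots and more so in lot II. SNORD34 differed by −0.27 in lot I and −1.59 in lot II, a difference of 1.32 (adjusted p 0.00384). In the opposite direction 3 RNAs differed (0.0163% of all genes): RPPH1, the RNA of ribonuclease P, by −0.30 in lot I and 0.99 in lot II, SCARNA10 by −0.56 in lot I and 1.37 in lot II, and RNU5D-1 by −1.09 in lot I and 1.86 in lot II. Lot, hours of culture and starting time run together in this comparison and cannot be told apart.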

How the data were processed

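RNA of 40 MDA-MB-231 samples was hybridised to Affymetrix Human Gene 1.0 ST arrays, 1 per sample. The deposited log2 values were made by the authors with RMA in Affymetrix Power Tools 1.10.2, and limma is also named, per the submitters' processing notes; whether the lots were normalized together is not given in the sources used here. Of 33297 probe sets, 19460 carried 1 gene symbol; the 1754 with several and the 12083 not listed were not analysed here. For the 769 genes with more than 1 probe set, the brightest over all arrays was taken, which left 18417 genes.

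The 24 arrays of lot I were fitted with 1 mean per group (lmFit and eBayes, limma 3.58.1, R 4.3.3, adjusted p threshold 0.05), and again with the replicate number as a block. The labels pair treated and control arrays within a time; across the times, after each group's mean was subtracted, the arrays sharing a number correlated at 0.48, 0.22, 0.12 and 0.47 for numbers 1 to 4, which met the rule for pairing (each over 0.1). For 3 of 4 numbers the own number was the best match, while 24 h replicate 3 matched 12 h replicate 2 better (0.24), and 24 h replicate 2 matched 12 h replicate 3 nearly as well (0.18). Residual degrees of freedom were 18 without and 15 with the block. The labels call the replicates independent, and the number of arrays limits the precision. SEs are from the fit without the block.

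Named genes were the 12 with the smallest p in each direction, up to 4 per list with the smallest p, the 4 with the smallest p in each direction for a difference between arms, and a short list of drug-response genes. Genes that passed with the block and other genes of 1.5-fold were named after their values were seen. The arrays, the lists and the genes were chosen with earlier results of these data known. Short noncoding genes were counted by symbol. Scripts were tested on simulated data.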

Additional observations from a re-analysis of the deposited data

Results flagged for a closer look

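Each gene named for the interval of 24 h minus 12 h and each gene list was examined for 1 array far from the other 3 of its group. This held for 25 of 312 groups of 4, where chance marks about 1 in 20. At 24 h, replicate 1 stood apart for PLLP (8.27), GPRC5B (7.86), ACSS2 (8.38), SLC7A11 (9.97), RIGI (7.78), KLF2 (9.31) and CDKN1A (7.55). Replicate 3 of 24 h stood apart for MVK (8.31) and the SRF and actin list (median deviation −0.08). Replicate 4 of 24 h stood apart for TBC1D2B (7.54), COL13A1 (8.99) and the ribosomal protein list (median deviation −0.17). At 12 h, replicate 1 stood apart for HMGCS1 (8.77), FDPS (9.38), PCK2 (7.90), KRT7 (9.65) and the heat shock list (median deviation 0.08). Replicate 2 of 12 h stood apart for GUCA2A (5.32), and replicate 3 of 12 h for LRRC18 (5.07) and the YAP and TAZ list (median deviation −0.04). Replicate 4 of 12 h stood apart for SCARNA5 (6.82), RNU5E-1 (7.93), SCARNA10 (6.39), CALD1 (7.29) and CCN1 (11.3).

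GBP2 is named because its 24 h minus 12 h difference was tested to be larger in fluvastatin-treated than in mock-treated cells, by 1.09 on the log2 scale with the replicate block. Its difference between those arms ranged from 0.93 to 1.22 when 1 array was left out with no block, and it passed in none of these fits. The call with the block was lost when any replicate number was left out.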

How the results depend on the processing

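With the replicate number as a block, 18 genes passed for 24 h minus 12 h in mock-treated cells, against 0 without it. The block combined with other settings was chosen after seeing the data: it gave 39 genes after quantile normalization anew (all 18 shared), 19 after median centring, 42 without the dim genes, which left 12278 tested (17 shared), and 18 each with a random block for time and number and with probe sets averaged per gene. Without replicate number 1 or 4 the block gave 3 and 8 genes, and without number 2 or 3 it gave 0. Every alternative without the block gave 0, as did the 8 arrays alone with the block. For fluvastatin minus mock-treated cells the block gave 1 gene, alone, after quantile normalization anew, after median centring, without the dim genes, with the random block and with averaged probe sets, and 0 without any 1 replicate number. For zoledronate minus mock-treated cells all alternatives gave 0. The cause of these shifts was not tested. Median centring moved the median of all genes by −0.021. Fewer list members had an unadjusted limma p under 0.05 without the block. Higher were 7 of 16 for cholesterol synthesis, 6 of 18 for sterol uptake and lipid synthesis and 0 of 31 for interferon (479 of 18417 genes). Lower were 6 of 22 for oxidative stress, 5 of 28 for matrix, 2 of 29 for G2 and mitosis and 2 of 21 for SRF and actin. Also lower were 10 of 115 box C/D and 12 of 77 box H/ACA genes, against 288 of 18417 genes.

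Of 118 named genes 110 showed no reversal of sign, counted on values rounded to 2 decimals, in any alternative. EBP and MYC, at 0.00, could not be counted as reversed by that rule. Leaving out 1 array gave −0.08 to 0.11 for EBP and −0.10 to 0.06 for MYC. Leaving out 1 array gave −0.05 to 0.01 for CCND1, −0.19 to 0.11 for NR1D1, −0.28 to 0.07 for BHLHE40, −0.05 to 0.19 for KLF2, −0.01 to 0.15 for RHOB, −0.10 to 0.13 for NDRG1, −0.15 to 0.01 for DDIT3 and −0.28 to 0.15 for ASNS. With the block and without replicate number 4, CCND1 was at 0.02, NR1D1 at 0.01 and NDRG1 at −0.01; BHLHE40 was at 0.04 and 0.03 without number 1 and 2, and NDRG1 at −0.02 with array weights. When 1 array was left out, list medians ran from 0.20 to 0.33 for cholesterol synthesis, 0.11 to 0.32 for sterol uptake and lipid synthesis, 0.10 to 0.21 for interferon, −0.18 to −0.04 for box C/D and −0.19 to −0.06 for box H/ACA RNAs, and −0.07 to 0.03 for the matrix list. In fluvastatin-treated cells the 68 genes without the block ranged from 20 without 24 h replicate 1 to 226 without 24 h replicate 2 when 1 array was left out. Most differences lay near the median SE of 0.11 per gene, and changes of that size were not detectable with 4 arrays a group. Without the block even MYO10, at −0.48 ± 0.11, did not pass (limma, adjusted p 0.531). With the block COL4A2 passed at −0.30 (adjusted p 0.0498), while MVK at 0.28 did not (0.0655). A gene that did not pass may therefore still have changed.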

Other observations

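By array, the median deviation of the 16 cholesterol synthesis genes from their mean over the 8 arrays was 0.00, 0.14, 0.24 and 0.22 in replicates 1 to 4 at 24 h, against −0.30, −0.01, −0.10 and −0.03 at 12 h. Every 24 h array lay above every 12 h array, with replicate 1 lowest at both times. For the 31 interferon-stimulated genes it was −0.24, 0.07, 0.20 and 0.28 at 24 h, against −0.31, −0.05, −0.07 and 0.15 at 12 h, with overlapping groups. Other lists had medians close to that of all genes: 25 hypoxia and glycolysis genes had a median of 0.05, 58 histone genes 0.01, 62 ribosomal protein genes −0.03, 23 respiratory chain genes 0.01, 18 heat shock genes 0.01 and 20 unfolded protein response genes −0.05. Of the 62 ribosomal protein genes 43 were negative. With the block 7 of them had an unadjusted limma p under 0.05 in the lower direction (11.3%, against 4.04% of all genes), and without it 0. The 20 FOXO and quiescence genes had a median of 0.10 with 16 positive, the 13 KLF genes 0.08 with 11 positive, the 10 sterol efflux genes of LXR 0.15 and the 17 ERK feedback genes 0.03, in which SPRY1, an inhibitor of receptor signalling, differed by 0.29. Of the 17 ERK feedback genes 4 had an unadjusted limma p under 0.05 in the higher direction with the block (23.5%, against 5.06% of all genes). Without the block 1 did. No member of these lists passed the threshold.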
